A study of Mus musculus with 6 samples.

Results

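The genes of the sarcomere, the contractile unit of striated muscle, and of its Z-disc were examined in whole skin of JunBΔep and control mice. The list held 40 gene symbols, written by hand, and all 40 were found among the 23951 symbols of the deposited FPKM table (a fragment count divided by transcript length and library size). Poly(A) RNA was sequenced from 3 mice labelled JunB +/+, the controls, and 3 mice labelled JunB dep, called JunBΔep here. JunBΔep mice lack Junb, an AP-1 transcription factor, in cells that express keratin 5, so the deletion is made in the epidermis and its appendages and other cells of the skin keep the gene. All 6 mice were C57Bl/6 littermates aged 6 to 7 months by the labels. By the study's description the JunBΔep skin was lesional. The sources used here do not give the other alleles of the controls, the sex of each mouse or the body site that was taken. Values by mouse are always given in the order of replicates 0, 1 and 2.

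In a sarcomere, thin filaments of actin, tropomyosin and the troponins slide along thick filaments of myosin, and calcium binding to troponin C starts the movement. Thin filaments are anchored at the Z-disc through alpha-actinin, thick filaments are held together at the M-band, and titin spans from one to the other. Mouse skin contains striated muscle in the panniculus carnosus, a sheet of mostly fast fibres under the dermis, while the arrector pili and vessel walls are smooth muscle. Many sarcomere proteins exist as a fast and a slow isoform from separate genes.

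The FPKM values of a mouse summed to 481078 to 630363, and the number of reads behind them is unknown. Junb, the deleted gene, had 59.3, 72.4 and 56.9 FPKM in controls, against 129.6, 42.8 and 28.1 FPKM in JunBΔep mice. For Junb the library labelled JunBΔep replicate 0 thus went against its label, as far as a gene kept by other skin cells can show this. By the summed sarcomere and Z-disc genes, given below, it lay with the other JunBΔep mice. The same library held Krt13, a keratin of mucosal epithelium, at 1990 FPKM (at most 0.367 FPKM elsewhere) and S100a8, a neutrophil and inflammation gene, at 24456 FPKM (8.15 to 744 FPKM elsewhere). S100a9, the partner of S100a8, was listed at 0 in the library labelled JunBΔep replicate 0 and had 3.81 to 698 FPKM elsewhere. Likewise Krt14 was listed at 0, while its partner keratin Krt5 was at 3725 FPKM, the highest of the 6 mice. Control replicate 0 held the liver transcript Alb at 823 FPKM (at most 18.8 FPKM elsewhere). The main counts are therefore also given without single libraries.

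The sarcomere and Z-disc genes were lower in JunBΔep skin. Together they summed to 24113, 32939 and 23784 FPKM in the control mice, which was 4.44% to 5.61% of all FPKM. In JunBΔep mice they summed to 3183, 2571 and 5461 FPKM, or 0.505% to 1.09%. The mean sum was 7.21 times higher in controls (26945 ± 5193 against 3739 ± 1523 FPKM, SD, n = 3 mice a group). Without the library labelled JunBΔep replicate 0, and with each other mouse left out in turn, the log2 ratio of the sums stayed between -3.23 and -2.64. In bulk skin, fewer muscle fibres and less sarcomere RNA per fibre cannot be told apart.

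Of the 40 genes, all of which passed the filter of 0.1 FPKM on average, 26 passed the threshold of 0.05, every one of them lower, in limma with Benjamini-Hochberg adjustment over 17021 genes. Among all tested genes 1.38% were called lower. The 40 genes were chosen with earlier results of these data known, so their share is a description and was not tested against that of all genes. None of the 40 was called higher, nor had a higher value at an unadjusted p below 0.05. In 34 of the 40, every JunBΔep mouse was below every control, where 9.16% of all tested genes showed this. The median log2 fold change of the 40 was -2.70 on the log2(FPKM + 0.5) scale, against 0.03 over all genes tested. The called genes fell by 1.85 to 3.33 on the log2 scale. The number of called members was 0 without control replicate 0, 1 or 2 or without JunBΔep replicate 1. It was 10 without the library labelled JunBΔep replicate 0 and 27 without JunBΔep replicate 2. Among all genes tested, the number called lower was also 0 in the fits with 0 called members. It was 125 of 16912 without the library labelled JunBΔep replicate 0 and 254 of 16993 without JunBΔep replicate 2. In each of the 6 fits with 1 mouse left out, 34 members were lower at an unadjusted p below 0.05, where 731 to 1842 of all genes were. The median log2 fold change of the members in these fits lay between -2.94 and -2.47. With all mice, 1044 of 17021 genes were lower and 243 higher at that p.

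**Figure D1:**
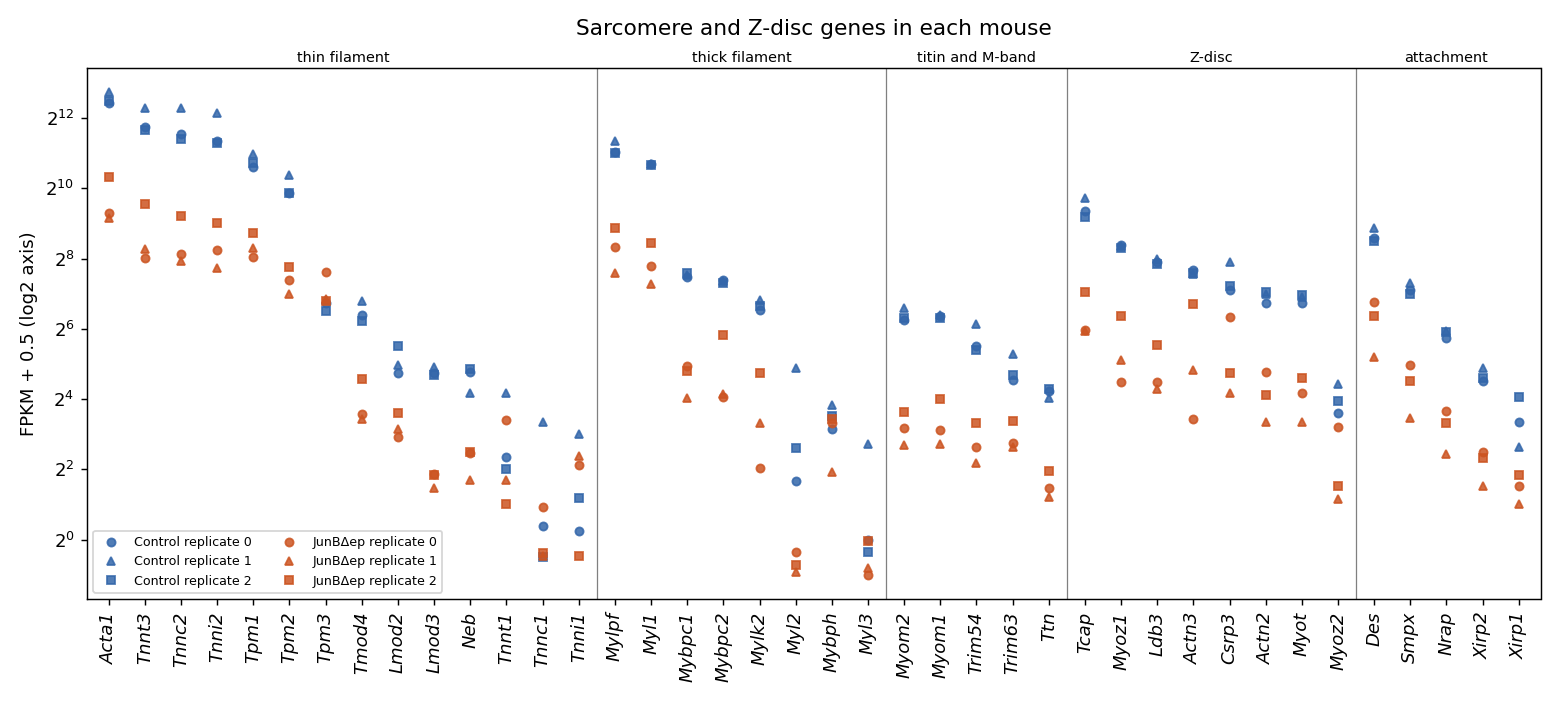
FPKM + 0.5 on a log2 axis of each of the 40 genes in the 3 control mice (blue) and the 3 JunBΔep mice (orange), with genes grouped by role and ordered by control mean. The orange points lie below the blue ones for 34 genes and mix with them for Tpm3, Tnnt1, Tnnc1, Tnni1, Mybph and Myl3.

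The values were also taken apart by the number series in the sample names. JunBΔep replicate 0 and control replicates 0 and 1 carry one series of numbers, and the other 3 mice carry a second one. The labels do not say what the series stands for. The median difference of the 40 genes was -2.69 on the log2 scale in the first series, with 37 genes lower, and -2.70 in the second, with 38 lower. These are values of 1 mouse against 2 and 2 mice against 1, with no test. In limma with the number series as a block, 0 of the 40 genes and 0 of all genes were called (smallest adjusted p of a member 0.0661). At an unadjusted p below 0.05, 34 members were lower, as were 1077 of all 17021 genes.

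The RefSeq promoter table held 29 of the 40 genes, with 34 starts, and had no entry for Lmod3, Myoz1, Mylk2, Tnni2, Myot, Tnnt3, Neb, Myom2, Tcap, Xirp1 and Actn3. The bases before the start are shown for the most abundant gene of each role that has a single entry, and for both starts of Tpm3, which was not lower. Muscle-associated motifs and TATAAA were searched on both strands in the 250 bases before each start. The muscle motifs were the E-box CAGCTG that MyoD-type factors bind, the MCAT element CATTCC of TEAD factors, the MEF2 site and the CArG box of SRF, and a TATAAA match may lie inside a MEF2 match. Capitals mark matches. The sequences come from the RefSeq table of GRCm38.p6, each was found once in mm9, and coordinates are on mm9. They run 5′ to 3′ on the strand of the gene up to the RefSeq start, and those of Myom1, Actn2 and the first Tpm3 start were shortened to end where the GENCODE gene begins.
Acta1 (chr8:126418676-126418925, minus strand): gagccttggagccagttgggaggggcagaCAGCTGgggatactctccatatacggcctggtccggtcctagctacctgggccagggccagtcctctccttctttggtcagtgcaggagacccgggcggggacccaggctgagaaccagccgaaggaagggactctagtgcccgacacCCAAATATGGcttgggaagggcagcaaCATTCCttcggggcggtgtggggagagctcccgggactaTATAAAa
Mylpf (chr7:134354872-134355121, plus strand): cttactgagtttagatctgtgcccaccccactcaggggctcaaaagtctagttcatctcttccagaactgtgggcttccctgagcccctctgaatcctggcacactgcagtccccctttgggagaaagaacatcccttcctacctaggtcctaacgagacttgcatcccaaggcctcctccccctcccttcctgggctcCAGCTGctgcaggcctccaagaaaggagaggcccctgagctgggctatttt
Myom1 (chr17:71368647-71368860, plus strand): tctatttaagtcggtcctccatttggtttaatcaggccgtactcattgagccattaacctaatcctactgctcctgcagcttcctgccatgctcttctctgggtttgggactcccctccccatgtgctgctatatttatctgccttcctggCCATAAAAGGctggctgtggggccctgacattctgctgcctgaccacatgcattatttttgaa
Actn2 (chr13:12433028-12433249, minus strand): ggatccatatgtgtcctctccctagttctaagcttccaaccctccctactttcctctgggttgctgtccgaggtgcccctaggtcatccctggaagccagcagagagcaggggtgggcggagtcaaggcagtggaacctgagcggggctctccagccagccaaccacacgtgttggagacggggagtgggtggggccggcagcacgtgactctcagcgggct
Des (chr1:75356617-75356866, plus strand): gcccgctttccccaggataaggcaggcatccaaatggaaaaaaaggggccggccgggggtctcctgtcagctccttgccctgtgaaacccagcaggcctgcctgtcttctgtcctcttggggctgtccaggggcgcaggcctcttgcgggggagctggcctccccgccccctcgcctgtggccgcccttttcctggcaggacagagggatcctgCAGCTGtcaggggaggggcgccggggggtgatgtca
Tpm3 first start (chr3:89876323-89876570, plus strand): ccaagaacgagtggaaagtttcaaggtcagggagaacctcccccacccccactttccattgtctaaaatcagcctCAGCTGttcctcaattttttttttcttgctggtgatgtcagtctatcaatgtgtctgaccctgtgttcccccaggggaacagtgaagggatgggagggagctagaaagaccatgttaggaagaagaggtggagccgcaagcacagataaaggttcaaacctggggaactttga
Tpm3 second start (chr3:89883193-89883442, plus strand): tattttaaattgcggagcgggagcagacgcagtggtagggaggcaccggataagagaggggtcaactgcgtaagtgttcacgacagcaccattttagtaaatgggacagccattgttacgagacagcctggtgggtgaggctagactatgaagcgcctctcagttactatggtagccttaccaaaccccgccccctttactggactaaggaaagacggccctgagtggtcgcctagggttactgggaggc

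Acta1 carries CAGCTG, a CArG box, CATTCC and TATAAA in this window, Mylpf and Des carry CAGCTG, Myom1 carries a CArG box, and Actn2 carries none of the 5. The first Tpm3 start has CAGCTG and the second, which lies inside the gene, has none. Over all 34 starts, CAGCTG was present in 15 (44.1%, against 13.0% of all 32851 promoters in the table), CATTCC in 9 (26.5% against 12.6%), a CArG box in 5 (14.7% against 1.47%), a MEF2 site in 3 (8.82% against 1.69%) and TATAAA in 6 (17.6% against 12.4%). These counts describe letters in a short window and not bound sites.

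The thin filament genes comprised 14 members, of which 10 were called, all lower. Acta1, skeletal alpha-actin (chromosome 8, 126415669 to 126418651), was the most abundant of the 40. It was at 5542, 6866 and 5711 FPKM in controls against 631, 568 and 1283 FPKM in JunBΔep mice, that is -2.96 on the log2 scale (standard error, SE, 0.42, limma adjusted p = 0.0346). All JunBΔep mice were far below all controls, and replicate 2 was the highest of the 3. The promoter of this gene, shown above, held the most motif matches of those printed.

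With all 6 mice, the fast troponin subunits had the most negative log2 fold changes among the thin filament genes. Troponin C binds calcium, troponin I holds contraction back at rest, and troponin T fastens the complex to tropomyosin. Tnnc2, fast troponin C (chromosome 2, 164602661 to 164605467), measured 2968, 4975 and 2714 FPKM in controls against 279, 242 and 587 FPKM in JunBΔep mice, that is -3.33 on the log2 scale (SE 0.45, limma adjusted p = 0.0308). Tnni2, fast troponin I (chromosome 7, 149627713 to 149630315), measured 2601, 4546 and 2505 FPKM in controls against 303, 213 and 512 FPKM in JunBΔep mice, a log2 fold change of -3.27. Tnnt3, fast troponin T (chromosome 7, 149684741 to 149701914), measured 3394, 4970 and 3259 FPKM in controls against 260, 306 and 748 FPKM in JunBΔep mice, a log2 fold change of -3.28. For all 3 genes control replicate 1 was the highest mouse and the groups did not overlap. Without the library labelled JunBΔep replicate 0, Lmod3, a thin filament gene described below, fell more than Tnnt3 (-3.12 against -2.99).

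The slow troponin genes did not separate the groups. Tnni1, slow troponin I, measured 0.687, 7.57 and 1.79 FPKM in controls against 3.90, 4.73 and 0.220 FPKM in JunBΔep mice (log2 fold change -0.14, SE 1.008, adjusted p = 0.969 from limma). Tnnt1, slow troponin T, was at 4.65, 17.7 and 3.52 FPKM and at 10.1, 2.77 and 1.54 FPKM, and Tnnc1, the troponin C shared by slow muscle and heart, at 0.818, 9.66 and 0.211 FPKM and at 1.40, 0.229 and 0.272 FPKM. Control replicate 1 was the highest mouse for each of the 3. Without it the log2 fold change was 0.63 for Tnni1, -0.14 for Tnnt1 and 0.08 for Tnnc1, none with an adjusted p below 0.05.

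Tropomyosin lies along actin and blocks or frees the sites where myosin binds. Tpm1 (chromosome 9, 66870397 to 66897213) measured 1553, 2009 and 1668 FPKM in controls against 264, 317 and 419 FPKM in JunBΔep mice, and its log2 fold change was -2.40 (adjusted p = 0.0209 from limma). Tpm2 was at 938, 1324 and 940 FPKM and at 168, 127 and 216 FPKM, a log2 fold change of -2.66. Both genes are also expressed in smooth muscle. Tpm3 (chromosome 3, 89876571 to 89904824) encodes the slow muscle tropomyosin and, from other transcripts, a tropomyosin of nonmuscle cells, which a value per gene does not keep apart. It measured 105.1, 111.8 and 90.1 FPKM in controls against 197, 115 and 111 FPKM in JunBΔep mice (log2 fold change 0.41, SE 0.26, adjusted p = 0.722 from limma). Tpm3 was the single gene of the 40 with a positive log2 fold change, and it was 0.15 without the library labelled JunBΔep replicate 0.

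Among the genes that set thin filament length, Neb, whose product nebulin runs along the filament, measured 26.7, 17.7 and 28.5 FPKM in controls against 4.997, 2.72 and 5.15 FPKM in JunBΔep mice, a log2 fold change of -2.39. Lmod3, a leiomodin that nucleates actin (chromosome 6, 97188522 to 97202774), was at 26.2, 29.6 and 25.3 FPKM and at 3.15, 2.26 and 3.11 FPKM. Its log2 fold change was -3.05 with the smallest SE of the 40 genes (0.19, adjusted p = 0.0179 from limma). Lmod2, the related leiomodin of heart and skeletal muscle, fell less, by 1.85 on the log2 scale, from 34.1 ± 9.84 to 8.999 ± 2.34 FPKM (SD, n = 3). Tmod4, which caps the free filament end, measured 84.0, 110.0 and 74.4 FPKM in controls against 11.3, 10.2 and 23.1 FPKM in JunBΔep mice, a log2 fold change of -2.62. All 4 were called, and none overlapped between the groups.

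Of the 8 thick filament genes, 3 were called lower and 6 did not overlap between the groups. The myosin light chains stiffen and tune the lever arm of the motor. Mylpf, the fast regulatory light chain (chromosome 7, 134355122 to 134357812), measured 2110, 2604 and 2067 FPKM in controls against 321, 191 and 470 FPKM in JunBΔep mice (log2 fold change -2.87, SE 0.38, adjusted p = 0.0290 from limma). Myl1, the fast essential light chain (chromosome 1, 66970869 to 66991978), varied little among controls, at 1642, 1660 and 1618 FPKM, and was at 219, 155 and 347 FPKM in JunBΔep mice, a log2 fold change of -2.85. Mybpc1, the slow-type myosin-binding protein C, measured 178, 183 and 193 FPKM in controls against 30.3, 15.7 and 27.1 FPKM in JunBΔep mice, a log2 fold change of -2.95. These are the 3 called genes of the thick filament.

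The others of this role varied more among mice. Mybpc2, the fast-type protein C, was at 163 ± 5.94 FPKM in controls against 16.1, 17.2 and 56.0 FPKM in JunBΔep mice (adjusted p = 0.0793 from limma). Mylk2, the kinase of skeletal muscle light chains, had 101.4 ± 10.8 FPKM in controls (SD, n = 3) and 3.61, 9.48 and 26.4 FPKM in JunBΔep mice, and the log2 fold change was -3.30 with an adjusted p of 0.106 from limma. In both genes JunBΔep replicate 2 was well above the other JunBΔep mice and still below every control. Myl2, the regulatory light chain of slow fibres and heart ventricle, had the most negative log2 fold change of the 40, -3.70 (SE 0.80, adjusted p = 0.146 from limma), with 2.65, 28.8 and 5.61 FPKM in controls against 0.2825, 0.0318 and 0.113 FPKM in JunBΔep mice. Without control replicate 1 the log2 fold change of Myl2 was -2.79, with a pseudocount of 1 it was -2.98, and it was then no longer the most negative. Mylk2 was also more negative than Myl2 without JunBΔep replicate 2 (-3.99 against -3.68) and with the number series as a block (-3.63 against -3.52). Its essential counterpart Myl3 was at 0.487, 6.09 and 0.283 FPKM in controls. It was listed at 0 in the library labelled JunBΔep replicate 0, and at 0.0673 and 0.479 FPKM in the other JunBΔep mice. Mybph, a myosin-binding protein, was at 8.33, 13.6 and 10.9 FPKM and at 9.52, 3.29 and 10.2 FPKM, with overlapping groups (adjusted p = 0.722 from limma).

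All 5 genes of titin, the M-band and the ligases bound there were called lower. Ttn, titin, measured 18.2, 15.9 and 19.1 FPKM in controls against 2.28, 1.83 and 3.34 FPKM in JunBΔep mice, that is -2.64 on the log2 scale (SE 0.24, limma adjusted p = 0.0179). Myom1 and Myom2, myomesins that cross-link thick filaments, fell by 3.08 and 3.21 on the log2 scale. Myom2 measured 75.1, 95.7 and 78.7 FPKM in controls against 8.57, 5.93 and 11.97 FPKM in JunBΔep mice. Trim63, the ubiquitin ligase MuRF1 that is raised in muscle atrophy, measured 22.9, 38.3 and 25.2 FPKM in controls against 6.19, 5.71 and 9.90 FPKM in JunBΔep mice, a smaller log2 fold change of -1.92 (adjusted p = 0.0453 from limma). Trim54, the related MuRF3, was at 45.1, 69.8 and 41.8 FPKM and at 5.68, 4.07 and 9.49 FPKM, a log2 fold change of -2.97. Trim63 was higher in control replicate 1 than in the other controls, as was Trim54.

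The 8 Z-disc genes were all lower in every JunBΔep mouse than in every control, and 5 were called. Ldb3, which links alpha-actinin to titin and signalling proteins (chromosome 14, 35339885 to 35401867), measured 239.6, 253 and 229 FPKM in controls against 21.9, 19.1 and 45.7 FPKM in JunBΔep mice (log2 fold change -3.14, SE 0.34, adjusted p = 0.0198 from limma). Tcap, telethonin, which caps the end of titin, was at 658, 845 and 585 FPKM and at 62.5, 60.7 and 131 FPKM, a log2 fold change of -3.11. Myot, myotilin, an actin cross-linker, was at 106.9, 120.0 and 124 FPKM and at 17.7, 9.74 and 24.0 FPKM. Myoz1, the myozenin of fast fibres, fell by 3.03 on the log2 scale. In each of these 4 genes JunBΔep replicate 2 was the highest JunBΔep mouse.

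The 2 sarcomeric alpha-actinins went apart in the library labelled JunBΔep replicate 0 and, in the other direction, in JunBΔep replicate 2. Actn2, found in all fibres, measured 106.9, 125.7 and 132 FPKM in controls against 26.6, 9.77 and 16.9 FPKM in JunBΔep mice (log2 fold change -2.84, adjusted p = 0.0265 from limma). Actn3, restricted to fast fibres, measured 203, 188 and 192 FPKM in controls against 10.3, 27.8 and 103.3 FPKM in JunBΔep mice (log2 fold change -2.62, SE 0.78, adjusted p = 0.370 from limma). The library with the highest Actn2 of the 3 thus had the lowest Actn3. Csrp3 is a LIM protein of the Z-disc enriched in slow fibres and heart, and Myoz2 is the myozenin of slow fibres and heart. Among the JunBΔep mice, both were also highest in the library labelled JunBΔep replicate 0. Csrp3 measured 137, 238 and 150 FPKM in controls against 80.1, 17.6 and 26.1 FPKM in JunBΔep mice, and Myoz2 was at 11.6, 21.0 and 15.1 FPKM and at 8.78, 1.73 and 2.40 FPKM. Their adjusted p-values from limma were 0.217 and 0.326, and without the library labelled JunBΔep replicate 0 they were 0.0416 and 0.0427.

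The genes of attachment and of the intermediate filament numbered 5, of which 3 were called lower. Des, desmin, ties neighbouring Z-discs together and is also a smooth muscle gene. It measured 382, 463 and 360.1 FPKM in controls against 108, 36.5 and 82.4 FPKM in JunBΔep mice, and the log2 fold change was -2.53 with an adjusted p of 0.0551 from limma, just outside the threshold. Smpx, a small muscle protein encoded on the X chromosome, was at 136, 156 and 126 FPKM and at 30.6, 10.5 and 22.2 FPKM (log2 fold change -2.81, adjusted p = 0.0323 from limma). Nrap, which joins filaments to the membrane at the muscle-tendon junction, was at 52.9, 60.7 and 59.9 FPKM and at 12.05, 4.96 and 9.42 FPKM, a log2 fold change of -2.73. Xirp2 fell by 2.55 on the log2 scale, and its actin-binding relative Xirp1 measured 9.75, 5.75 and 16.1 FPKM in controls against 2.36, 1.52 and 3.11 FPKM in JunBΔep mice (adjusted p = 0.158 from limma). In this role the library labelled JunBΔep replicate 0 was the highest of the JunBΔep mice for Des, Smpx, Nrap and Xirp2.

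**Figure D2:**
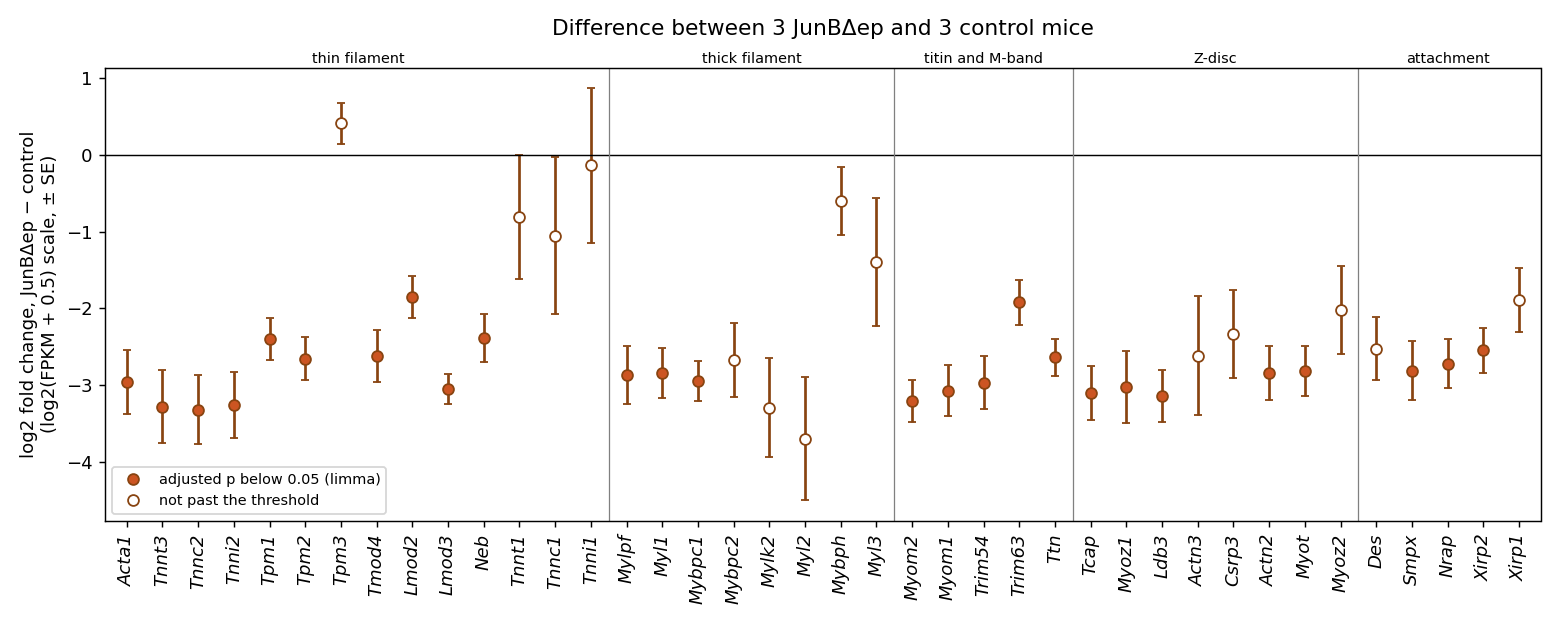
Log2 fold change of each gene between the 3 JunBΔep and the 3 control mice on the log2(FPKM + 0.5) scale, with bars of 1 SE from limma. Filled points mark the 26 genes with an adjusted p below 0.05, and Tpm3 is the one point above 0.

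The order of the mice within a group varied from gene to gene. JunBΔep replicate 1 had the lowest of the 3 JunBΔep values for 29 of the 40 genes, and JunBΔep replicate 2 had the highest for 26. Among controls, replicate 1 was the highest for 30. Against the control mean, the median of the 40 genes on the log2 scale was -2.70, -3.28 and -2.26 in the JunBΔep mice, while the controls lay at -0.13, 0.21 and -0.08. The share of Acta1 in the summed FPKM of the 40 genes was 20.9% to 24.0% in controls and 19.8% to 23.5% in JunBΔep mice, so the groups overlapped in this share while the sum differed. Relative to Acta1 of the same mouse, 30 of the other 39 genes overlapped between the groups. Tnnc2, Ldb3 and Myl2 had a lower ratio in every JunBΔep mouse (0.170% of all genes tested did). Tpm1, Tpm3, Mybph, Lmod2, Trim63 and Tmod4 had a higher ratio in every JunBΔep mouse, where 87.9% of all genes tested did. Tmod4, for example, was at 15.2, 16.0 and 13.0 FPKM per 1000 FPKM of Acta1 in controls and at 17.95, 17.98 and 18 in JunBΔep mice. These ratios were not tested.

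Fast fibre members were lower in every JunBΔep mouse than in every control, while slow fibre members varied among the mice of both groups. Of 9 genes of the fast type (Actn3, Tnnt3, Tnni2, Tnnc2, Mylpf, Myl1, Mylk2, Mybpc2 and Myoz1), 6 were called lower, all 9 had no overlap, and the median log2 fold change was -3.03. Of 8 genes of the slow type (Tnnt1, Tnni1, Tnnc1, Myl2, Myl3, Myoz2, Tpm3 and Csrp3), 0 were called in limma, 3 had an unadjusted p below 0.05, 3 had no overlap, and the median was -1.23. Mybpc1 was not in that list. With it added, a choice made after seeing the data, 1 of 9 was called and the median was -1.40. With Mybpc1 added and Tpm3 left out, 1 of 8 was called and the median was -1.71. The difference between the 2 types was not tested, and the slow median depends on the pseudocount because several slow members are low. With a pseudocount of 0.1, Myl2, Myl3 and Tnnc1 were at -5.12, -2.39 and -1.31 on the log2 scale. With 0.5 they were at -3.70, -1.40 and -1.05, while Tpm3 hardly moved (0.42 and 0.41). By mouse, the median of the fast type stood at -3.61, -3.40 and -2.24 against the control mean in JunBΔep replicates 0, 1 and 2, and the slow type at -0.47, -1.57 and -1.89. The library labelled JunBΔep replicate 0 thus had the lowest median for the fast type, while the summed FPKM of that type was lowest in JunBΔep replicate 1 (1195 against 1434 FPKM). Its slow type median lay between those of control replicates 0 and 2 (-0.59 and -0.36). Control replicate 1 stood at 1.43 for the slow type.

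The share of one gene within a pair of related genes compares isoforms inside a library, since FPKM is a level per length. In the 10 pairs examined, the exact two-sided permutation test over 3 mice against 3 cannot give a p below 0.1, and adjusted over the 10 pairs no value was below 0.5. Lmod2 made up 50.0%, 51.0% and 64.0% of Lmod2 + Lmod3 in controls and 69.0%, 78.8% and 78.8% in JunBΔep mice, a difference of 20.5 percentage points without overlap (exact permutation p = 0.1, the smallest possible). Myl2 made up 0.126%, 1.09% and 0.271% of Myl2 + Mylpf in controls and 0.0879%, 0.0167% and 0.0241% in JunBΔep mice, again without overlap (exact permutation p = 0.1). With each mouse left out, the difference ran from 18.03 to 25.05 points for Lmod2 and from -0.639 to -0.155 points for Myl2, where the mean difference over all mice was -0.454 and the smallest came without control replicate 1. The other 8 pairs overlapped.

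In those 8 pairs the JunBΔep mice were spread more widely than the controls for the Z-disc pairs. Actn3 was 65.5%, 59.98% and 59.3% of Actn3 + Actn2 in controls and 27.9%, 74.0% and 85.9% in JunBΔep replicates 0, 1 and 2. Myoz2 was 3.37%, 5.98% and 4.60% of the myozenin pair in controls and 28.8%, 4.79% and 2.86% in JunBΔep mice. Mybpc1 was 51.5%, 52.7% and 55.3% of its pair in controls and 65.2%, 47.8% and 32.6% in JunBΔep mice. In these 3 pairs the library labelled JunBΔep replicate 0 lay beyond every control toward Actn2, Myoz2 and Mybpc1, and JunBΔep replicate 2 beyond every control toward Actn3, Myoz1 and Mybpc2. Troponins were almost wholly of the fast type in controls, with at most 0.166% Tnni1, 0.356% Tnnt1 and 0.194% Tnnc1 of their pairs. In JunBΔep mice Tnni1 made up 1.27%, 2.18% and 0.0429%, Tnnt1 3.73%, 0.897% and 0.206%, and Tnnc1 0.499%, 0.0948% and 0.0463%, so replicate 2 lay within the control range for all 3. Without the library labelled JunBΔep replicate 0 the difference in the Tnnt1 share was 0.351 in place of 1.41 percentage points, and that in the Tnnc1 share was -0.0059 in place of 0.137. The Myl3 share was at most 0.365% in any mouse, and the Xirp1 share of the Xin-repeat pair ran from 16.4% to 40.6% in controls and from 31.4% to 40.8% in JunBΔep mice.

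**Figure D3:**
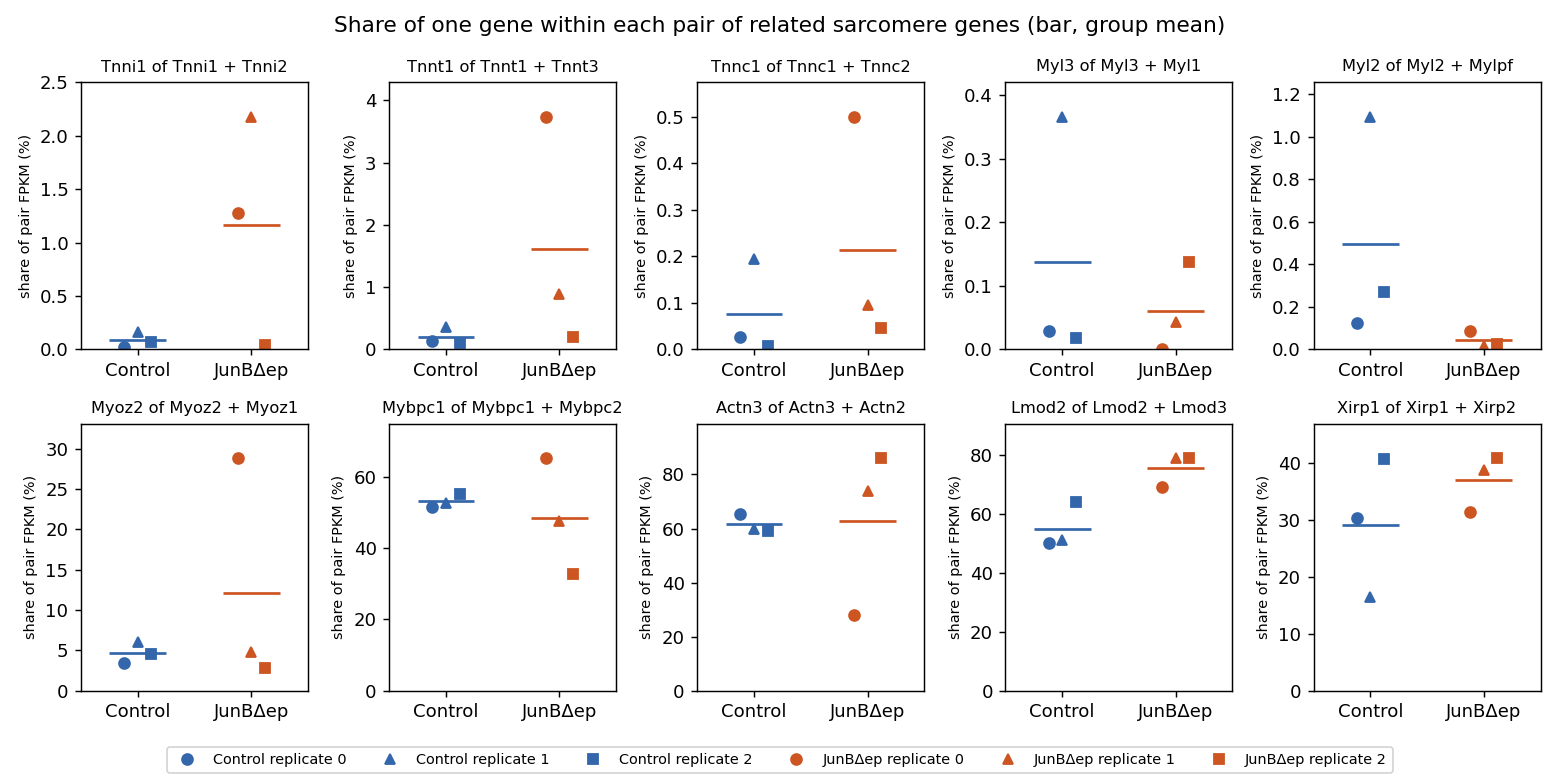
Share of the first gene in the summed FPKM of each of the 10 pairs, in percent, by mouse, with a bar at each group mean and a separate scale from 0 in each panel. Lmod2 of Lmod2 + Lmod3 and Myl2 of Myl2 + Mylpf do not overlap between groups, and JunBΔep replicate 0 stands apart for Myoz2 and Actn3.

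Other genes of the sarcomere outside the list, also chosen with earlier results of these data known, were examined. Of 38 such genes, 37 passed the filter, 19 were called lower and 0 higher by limma, none of them higher at an unadjusted p below 0.05 and with a median log2 fold change of -2.19. The count of called genes was 0 without any 1 control or without JunBΔep replicate 1, as was the count over all genes tested. Myh4, the heavy chain of the fastest fibres, measured 815, 672 and 751 FPKM in controls against 41.4, 58.9 and 179 FPKM in JunBΔep mice (adjusted p = 0.0561 from limma), and Myh2, of fast oxidative fibres, was at 39.3, 77.2 and 49.5 FPKM and at 2.07, 3.04 and 6.60 FPKM (adjusted p = 0.0216 from limma). Myh1, another fast heavy chain, was called lower (adjusted p = 0.0268 from limma), and its values of 64.9, 26.0 and 42.5 FPKM in JunBΔep mice, below controls at 266, 367 and 259 FPKM, put replicate 0 highest, where Myh4 and Myh2 were lowest. Myh7, of slow fibres, was at 0.243, 2.11 and 0.0699 FPKM in controls, where replicate 1 was again the highest. In JunBΔep replicates 0 and 1 it was listed at 0, and at 0.00789 FPKM in replicate 2. Capzb and Capza2, actin-capping subunits used by all cells, had log2 fold changes of 0.01 and -0.08 and overlapping groups. Of 6 cardiac and embryonic isoform genes that passed the filter, 0 were called by limma and 2 had an unadjusted p below 0.05.

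Markers of other cells, from lists chosen with the same earlier results known, were examined beside these genes. Of 12 markers of skeletal muscle fibres outside the sarcomere, 7 were called lower, and they summed to 8196 to 10147 FPKM in controls against 672 to 1859 FPKM in libraries labelled JunBΔep. Of 9 smooth muscle markers 0 were called by limma and 2 had an unadjusted p below 0.05. They summed to 143 to 227 FPKM in controls against 72.0 to 234 FPKM in libraries labelled JunBΔep. All 9 had a negative log2 fold change, with a median of -0.89. Against the control mean, their median was -1.92, -0.57 and 0.10 in JunBΔep replicates 0, 1 and 2. Of the 9 cardiac and embryonic isoform genes, Myh6, Mybpc3, Myh3 and Myh8 stayed at or below 0.585 FPKM in every mouse. Tnnt2 ranged over all 6 mice from 6.25 to 13.1 FPKM, Tnni3 from 2.54 to 8.39 FPKM and Myl4 from 2.51 to 11.5 FPKM, each with overlapping groups. Actc1, cardiac actin, ranged from 3.74 to 13.5 FPKM across controls, above the 0.725 to 2.35 FPKM of the JunBΔep libraries, and was not called by limma. Myl7, an atrial light chain, reached 3.75 FPKM in the library labelled JunBΔep replicate 0 and at most 0.156 FPKM elsewhere. White adipocyte markers, which also lie deep in the skin, summed to 1883 to 5792 FPKM in controls and to 81.7, 2862 and 14316 FPKM in JunBΔep mice, with 0 of 8 called by limma and 0 at an unadjusted p below 0.05. The sums of 8 keratinocyte markers overlapped (8022 to 13621 and 7994 to 12753 FPKM), as did those of 8 fibroblast markers (1062 to 2679 and 746 to 1641 FPKM) and of 6 endothelial markers (56.6 to 78.2 and 31.1 to 117 FPKM). Tbx15, a transcription factor of body position and fast muscle fibres that was chosen after its values were seen, was at 27.5 to 32.7 FPKM in controls against 5.26 to 8.64 FPKM in libraries labelled JunBΔep (adjusted p = 0.0187 from limma). The part of body site, depth of the sample or tissue composition in the lower sarcomere genes was not tested.

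**Figure D4:**
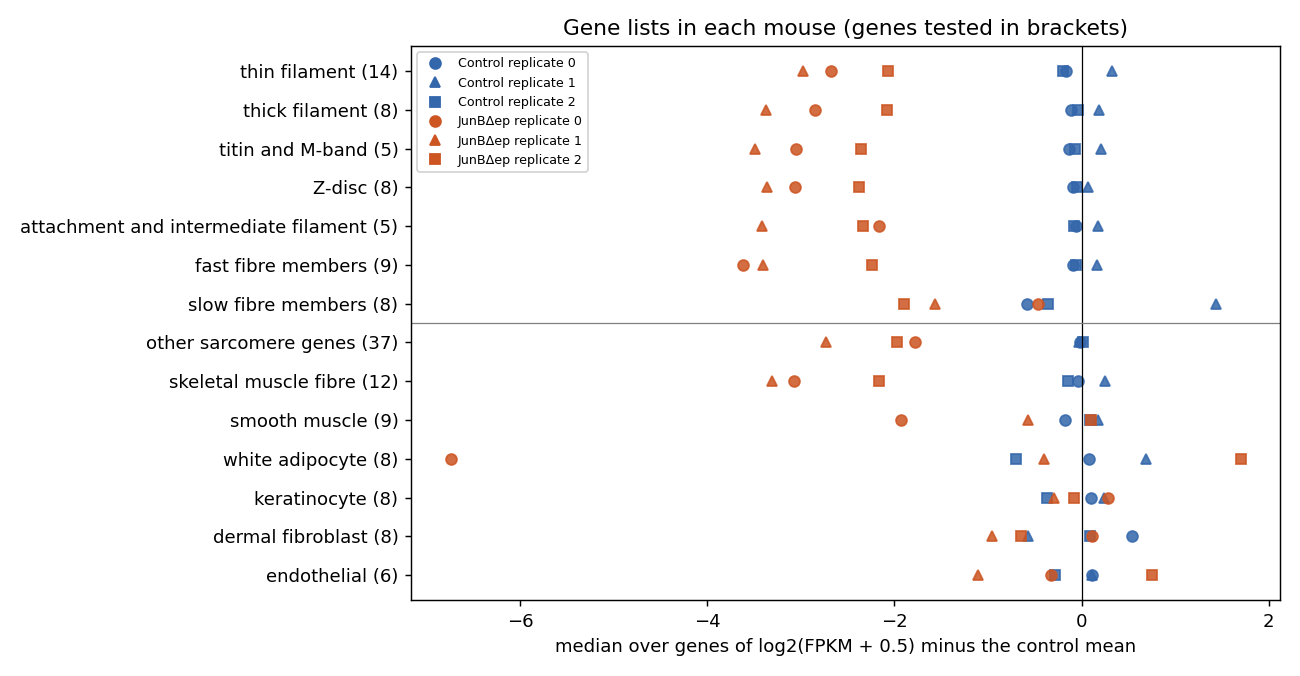
Median over the tested genes of each list of log2(FPKM + 0.5) minus the control mean, by mouse, for the roles and fibre types of the 40 genes (above the line) and for other lists (below it). All JunBΔep mice lie at -2.07 or lower for the 5 roles, while the adipocyte medians run from -6.74 to 1.70 in the same mice.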

How the data were processed

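The authors isolated poly(A) RNA from whole skin, made stranded libraries, aligned the reads to mm9 with TopHat2 2.0.10, Bowtie 1.0.0 and SAMtools 0.1.19, and deposited 1 FPKM value per gene and mouse. Cufflinks is named in the submitters' processing notes without a role. Read counts were not used here, and whether libraries were rescaled is unknown. Up to 20 placements per read were allowed, so related isoform genes can share reads. Depth can be compared between mice only: among genes under 0.15 FPKM the commonest ratio puts the scaling totals at 0.955 to 1.14 times that of control replicate 0, a ratio shared by 14.2% to 17.4% of these genes.

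Values were transformed to log2(FPKM + 0.5), which understates the change of low genes, and 17021 genes averaging 0.1 FPKM or more were compared with limma 3.58.1 (R 4.3.3), with an intensity trend, two-sided, Benjamini-Hochberg adjusted over all of them, threshold 0.05. The procedure was tested on simulated data. All 40 members are named, and those that head their role by control level, largest fall or smallest change, with most of the others, are given by mouse. Members and gene lists were chosen with earlier results of these data known. Replicate numbers are those of the labels. Littermates were used, and p-values measure the spread between these mice only. Pair shares were compared with exact permutation tests. Positions are from GENCODE vM1 on mm9. Python 3.11.15 with pandas 2.3.3 and matplotlib 3.10.9 drew up the remaining results. Alternatives were other pseudocounts, filters and scalings, no trend, 2 blocks and each mouse left out.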

Additional observations from a re-analysis of the deposited data

How the results depend on the processing

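The number of called members, 26, stayed within 26 to 28 with pseudocounts of 0.1 and 1, a filter at 1 FPKM, both other scalings, no trend, and an adjusted p below 0.1. It was 17 without a filter, where 20285 genes were tested, and 12 other sarcomere genes were then called instead of 19. With each mouse left out it ran from 0 to 27, that of all genes called lower from 0 to 254, and that of the other sarcomere genes from 0 to 17. With the replicate number as a block 0 members, 0 genes and 0 other sarcomere genes were called (smallest adjusted p of a member 0.145 from limma, 34 members lower at an unadjusted p below 0.05), and with a block on the number series 0, 0 and 0 (smallest 0.0661, 34 members). Of all 17021 genes, 854 were lower at that unadjusted p with the replicate block and 1077 with the number-series block. Deviations of same-numbered mice correlated at 0.12, -0.23 and -0.43 for numbers 0, 1 and 2. Those of differently numbered mice correlated at -0.37 to 0.46. With 3 mice a group, these values cannot decide whether the numbers pair the mice, and the numbers are used here as names only. The median log2 fold change of the members stayed between -2.94 and -2.47 under all 15 alternatives. Of 600 values of single members under them, 403 kept direction and side of the threshold, 186 lost the call, 7 gained it and 4 turned. The 4 belonged to Tnni1, at 0.13 with the number-series block and -0.75 to 0.78 with each mouse left out, and Tnnc1, at -1.84 to 0.079 with each mouse left out. With each mouse left out, the JunBΔep minus control difference in share ran from 0.570 to 1.64 points for Tnni1, 0.351 to 2.11 for Tnnt1, -0.0059 to 0.220 for Tnnc1, -0.137 to 0.0368 for Myl3, -0.82 to 12.1 for Myoz2, -13.0 to 3.33 for Mybpc1, -10.6 to 18.4 for Actn3, -0.639 to -0.155 for Myl2, 18.03 to 25.05 for Lmod2 and 1.52 to 13.6 for Xirp1. For calls lost with 1 mouse fewer or a block, fewer residual degrees of freedom are part of the construction. The depth per mouse is unknown, so low members such as Myl3 and Tnni1 carry no counting interval.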
